A study of Mus musculus with 4 samples.

Results

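RNA of coding sequences was compared between mouse heart and tibialis anterior (TA), a fast-twitch muscle of the lower hindlimb. Both tissues came from 10-week-old male C57BL/6J mice with no treatment or genetic change, and each gave 1 library of total RNA depleted of ribosomal RNA. The genes compared were the 9843 symbols that were listed for both tissues and had a mean of at least 1 RPM (reads on the coding sequence, scaled to a fixed total of coding reads in each library), out of 11237 symbols listed for either tissue. A further 63 symbols listed for both fell under that minimum, 885 were listed for heart only and 446 for TA only. The tables leave out genes by a rule that the labels do not state, so an unlisted gene is not a 0. The number of animals behind each library is not stated, and whole pieces of tissue were used, so vessels, connective tissue and blood were included with the muscle cells.

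Each tissue had 1 library, so the differences below could not be set against the spread between replicates and carry no p-values. A gene was called higher or lower in heart if its heart over TA ratio lay at least 2-fold from that of the median gene. The ratio is given below as a centred log2 value, in which 0 is the median gene, 1 is 2-fold higher in heart relative to it and -1 is 2-fold lower. Intervals are 95% exact intervals of the ratio computed from read numbers, and they cover counting error only. The depth was 9286408 coding reads in heart and 16051136 in TA, so that 1 read was worth 0.107 RPM in heart and 0.0621 RPM in TA.

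Heart and fast limb muscle build the same contractile machine from different gene copies. In the sarcomere, myosin on thick filaments pulls on actin thin filaments when calcium binds troponin, and titin spans the unit as an elastic ruler. Cardiac myocytes beat without rest, are joined end to end by intercalated discs, and burn mainly fatty acids in abundant mitochondria. Fast limb fibres are single large cells under nerve control, store glycogen, and draw much of the energy for short bursts from glycolysis and from creatine phosphate.

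The promoters of gene pairs that stood at opposite ends of the comparison are shown first, because the pairs carry the main contrast. The 15 genes with the highest and the 15 with the lowest centred ratio, among genes with a mean of at least 10 RPM, included both members of several contractile pairs, and the windows below are those of each such pair for which RefSeq (GRCm38.p6) gave 1 window per gene. Each runs from 250 bases before to 50 bases after the gene's start, 5′ to 3′. Capitals mark matches on either strand to TATAAA, to the E-box CAGCTG, to the MCAT element CATTCC, to GATAAG, to the MEF2 site or to the CArG box, and no match shown overlaps another.
Mybpc3, cardiac myosin binding protein C (chr2:91117894-91118193, plus strand): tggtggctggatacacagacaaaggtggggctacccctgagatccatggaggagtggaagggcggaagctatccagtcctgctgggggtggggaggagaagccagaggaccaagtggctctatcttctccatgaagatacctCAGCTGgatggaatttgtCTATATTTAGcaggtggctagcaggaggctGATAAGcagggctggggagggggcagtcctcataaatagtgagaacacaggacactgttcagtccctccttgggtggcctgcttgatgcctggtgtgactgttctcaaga
Mybpc2, its fast skeletal counterpart (chr7:44524620-44524919, minus strand): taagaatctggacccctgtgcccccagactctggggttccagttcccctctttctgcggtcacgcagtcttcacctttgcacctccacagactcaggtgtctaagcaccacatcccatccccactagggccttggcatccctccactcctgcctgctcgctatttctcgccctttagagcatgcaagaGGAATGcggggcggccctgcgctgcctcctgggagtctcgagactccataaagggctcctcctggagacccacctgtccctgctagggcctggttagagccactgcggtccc
Tnnc1, slow and cardiac troponin C (chr14:31208062-31208361, plus strand): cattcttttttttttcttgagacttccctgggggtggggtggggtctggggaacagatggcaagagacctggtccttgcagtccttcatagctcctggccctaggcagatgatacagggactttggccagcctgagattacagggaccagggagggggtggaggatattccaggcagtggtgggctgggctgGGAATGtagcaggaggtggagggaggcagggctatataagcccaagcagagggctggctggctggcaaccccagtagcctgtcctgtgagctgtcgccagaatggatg
Tnnc2, fast troponin C (chr2:164779685-164779984, minus strand): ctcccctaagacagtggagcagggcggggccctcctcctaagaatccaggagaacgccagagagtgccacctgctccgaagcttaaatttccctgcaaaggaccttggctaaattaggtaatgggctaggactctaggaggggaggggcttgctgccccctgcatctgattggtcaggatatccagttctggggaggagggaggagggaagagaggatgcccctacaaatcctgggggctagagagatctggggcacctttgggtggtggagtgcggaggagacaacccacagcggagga
Myl3, ventricular and slow essential light chain (chr9:110763428-110763727, plus strand): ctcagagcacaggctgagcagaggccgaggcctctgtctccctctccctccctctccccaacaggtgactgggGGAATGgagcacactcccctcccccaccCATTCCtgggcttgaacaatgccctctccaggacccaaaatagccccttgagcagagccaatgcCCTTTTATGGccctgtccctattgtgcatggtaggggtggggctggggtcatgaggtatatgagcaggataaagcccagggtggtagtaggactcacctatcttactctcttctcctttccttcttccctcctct
Myl1, fast essential light chain (chr1:66945007-66945306, minus strand): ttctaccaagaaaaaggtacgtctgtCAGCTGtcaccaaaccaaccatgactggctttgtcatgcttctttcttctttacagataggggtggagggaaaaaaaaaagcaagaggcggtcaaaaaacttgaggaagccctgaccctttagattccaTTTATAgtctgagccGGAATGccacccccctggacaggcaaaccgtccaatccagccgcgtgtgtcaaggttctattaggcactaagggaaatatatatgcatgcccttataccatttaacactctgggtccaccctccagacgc

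The window of Mybpc3 held the E-box from base -108, a MEF2 match from base -90 and GATAAG from base -60, whereas that of Mybpc2 held a CATTCC match from base -62, counted from the gene's start. The window of Tnnc1 had a CATTCC match from base -58, and that of Tnnc2 had no match to any of the searched letters. The window of Myl3 had CATTCC matches from bases -177 and -149 and a CArG match from base -85. That of Myl1 had the E-box from base -224, TATAAA from base -95 and CATTCC from base -80. Of the 15 highest and the 15 lowest genes, 11 each matched the promoter table by symbol. GATAAG was found in 4 of the 11 windows of genes high in heart, 0 of the 11 windows of genes low in heart and 7.43% of all 27025 windows. The E-box CAGCTG was found in 4 of the 11 and 6 of the 11 windows against 16.1% of all, CATTCC in 3 and 3 against 14.6%, and TATAAA in 2 and 3 against 14.2%. MEF2 matches stood in 2 of the 11 and 1 of the 11 windows against 3.26% of all, and CArG matches in 2 and 1 against 1.57%. A match describes letters in the window and says nothing of binding.

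Across all genes the TA library was the more dominated by a few messages. The 50 most abundant genes of each library took 36.8% of coding RNA in heart and 58.1% in TA. The median gene had a heart value 1.62-fold its TA value (log2 0.70, and 0.36 when both libraries were rescaled without the 50 genes of highest mean level among those listed for both tissues), and all ratios were set relative to it. On that scale 1332 genes (13.5%) were at least 2-fold higher in heart, 1026 (10.4%) were at least 2-fold lower and 7485 lay between. Without centring, 3448 genes (35.0%) were higher in heart and 382 (3.88%) lower, so the balance of the calls rests on the centring. Each list count below is to be read against these shares over all genes. At 16-fold or more, 48 genes were higher in heart and 55 were lower. The standard deviation of the centred ratio over all genes was 1.14.

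**Figure D1:**
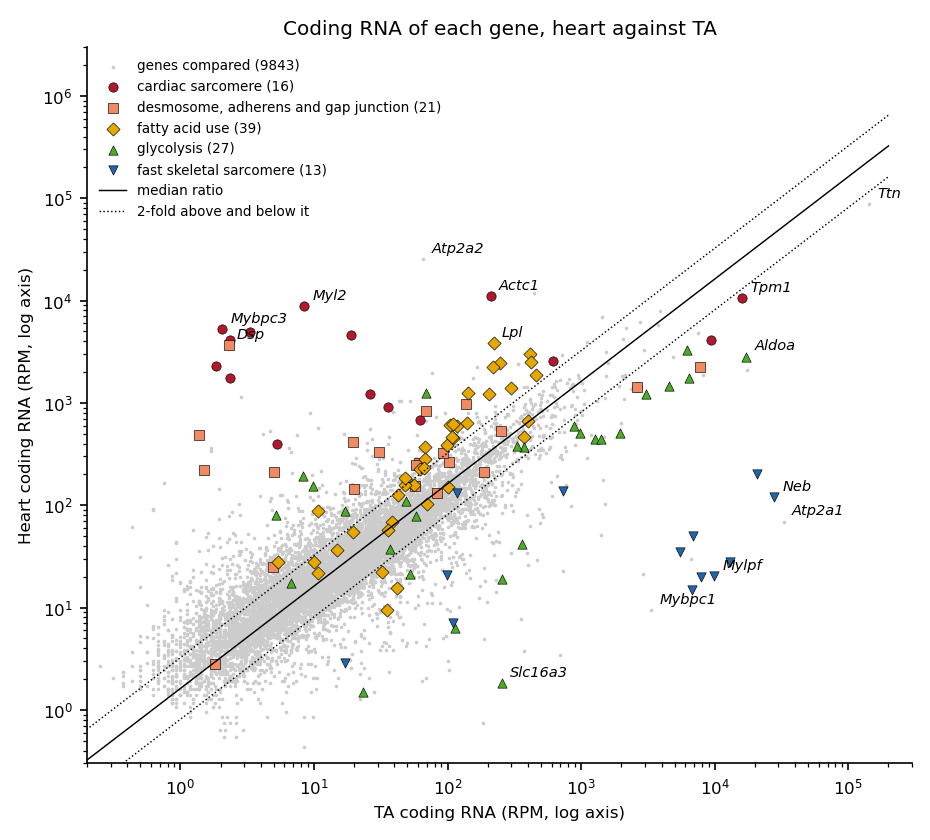
Coding RNA of each of 9843 genes in heart (vertical axis) against TA (horizontal axis), in RPM on log axes, 1 point per gene from 1 library per tissue. The solid line is the median ratio and the dotted lines lie 2-fold above and below it; cardiac sarcomere genes stand at the upper left and fast skeletal sarcomere genes at the lower right, with Ttn at 88159 RPM in heart and 143698 RPM in TA just under the lower dotted line.

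The genes at the heart end were mostly parts of the cardiac contractile apparatus and of cell junctions. Mybpc3, the cardiac protein that links myosin with the thin filament, had 5296 RPM in heart and 2.05 RPM in TA, a centred log2 ratio of 10.57 (interval 10.15 to 11.18). Tnni3, cardiac troponin I, had 4119 RPM in heart and 2.36 RPM in TA (10.01). Dsp, the desmosomal plaque protein desmoplakin, had 3645 RPM in heart and 2.30 RPM in TA (9.87). The next in order were Tnnt2, cardiac troponin T (9.81), Fhl2, a LIM protein of the cardiac sarcomere (9.50), Myl2, the ventricular regulatory light chain (9.32), and Tnnc1, slow and cardiac troponin C (8.77). Pln, the SERCA inhibitor phospholamban (7.90), Atp2a2, the cardiac SERCA pump (7.89), Cdh2, N-cadherin of the adherens junction (7.67), and Myl3, the ventricular essential light chain (7.21), followed. The 4 remaining genes of these 15 were Ogdhl, an oxoglutarate dehydrogenase-like enzyme (6.98), Fam40b (6.91), Cyfip2, a member of the actin-regulating WAVE complex (6.89), and Pkp2, desmosomal plakophilin (6.41). Together the 15 took 6.34% of coding RNA in heart and 0.0117% in TA.

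Most genes at the TA end were parts of the contractile and calcium machinery of skeletal muscle. Mylpf, the fast regulatory light chain, had 20.4 RPM in heart and 9894 RPM in TA, a centred log2 ratio of -9.61 (interval -9.83 to -9.41). Atp2a1, the fast-fibre SERCA pump, had 69.0 RPM in heart and 32953 RPM in TA (-9.59). Tnnt3, fast troponin T, had 28.0 RPM in heart and 12940 RPM in TA (-9.54). Tnnc2 and Tnni2, fast troponins C and I, stood at -9.50 and -9.31. Mybpc1, slow skeletal myosin binding protein C, stood at -9.15, and Neb, the giant thin-filament protein nebulin, at -8.57. Pvalb, the calcium buffer parvalbumin, had 29.9 RPM in heart and 6607 RPM in TA (-8.48). Ddit4l, an inhibitor of mTOR signalling (-8.44), Car3, carbonic anhydrase 3 (-8.32), Myl1 (-7.99), Mybpc2 (-7.79), Casq1, fast calsequestrin (-7.78), Slc16a3, a lactate exporter (-7.75), and Acta1, skeletal alpha-actin (-7.38), completed the 15. These took 0.0625% of coding RNA in heart and 14.6% in TA. In ribosome footprints, from libraries of their own, all 15 highest were higher and all 15 lowest were lower, and the same held for 3′ UTR reads of the same RNA libraries.

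The cardiac and fast skeletal sarcomere lists stood at opposite ends. They are named by tissue form and were chosen with earlier results of these data known, so their direction is no independent result. Of 16 cardiac sarcomere genes compared, 13 were higher in heart and 3 lower, with a median of 5.27. Of 13 fast skeletal sarcomere genes 0 were higher and 12 lower, with a median of -7.79, against 13.5% and 10.4% of all genes. Actc1, cardiac alpha-actin, had 11080 RPM in heart and 210 RPM in TA (5.02), and Csrp3, the muscle LIM protein of the Z-disc, had 1210 RPM in heart and 26.3 RPM in TA (4.82). Ankrd1, a stretch-responsive ankyrin repeat protein (5.51), Myoz2, a calcineurin-binding Z-disc protein (3.96), Lmod2, an actin filament nucleator (2.76), and Actn2, alpha-actinin of the Z-disc (1.34), were higher too. The 3 lower members were Tpm1, alpha-tropomyosin, with 10584 RPM in heart and 16040 RPM in TA (-1.30), Nrap, an actin-anchoring scaffold (-1.57), and Cmya5, the scaffold myospryn (-1.89). Of these 3 only Cmya5 was also 2-fold lower without centring. Of 8 sarcomere genes of slow skeletal fibres compared, some of them also cardiac, 5 were higher (Myl2, Tnnc1, Myl3, Csrp3 and Myoz2) and 1 was lower (Mybpc1).

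Several contractile genes were listed for 1 tissue only and so have no ratio. Myh6, the motor protein of adult mouse ventricle, had 60773 RPM in heart, and Mylk3, the cardiac light chain kinase, had 1037 RPM in heart. In TA the fast heavy chains Myh4 and Myh1 had 101254 and 11892 RPM, and Actn3, the fast-fibre alpha-actinin, 9189 RPM. Tpm2, beta-tropomyosin, had 5317 RPM in TA.

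Paralog pairs were compared per kilobase of coding sequence. In each, 1 member is a form known from heart or from tissues outside fast muscle, called the heart-type member here, and the other is a form known from fast or from striated muscle, called the TA-type member. Of 38 pairs, 26 had both members compared. In 25 of the 26 the centred ratio of the heart-type member was above that of the TA-type member, by at least 1 in 22. In 13 the heart-type member was called higher and the TA-type member lower. Pairs and member types were chosen with earlier results of these data known, so this order is no independent result. The predominant member per kilobase of coding sequence differed between the tissues in 14 pairs, and in the other 12 the TA-type member predominated in both, so in these it was also the main form in heart. The heart-type form of troponin T, Tnnt2, made up 99.4% of the pair's RNA per kilobase in heart and 0.0232% in TA. For the regulatory light chain, Myl2 made up 99.8% in heart and 0.0869% in TA, and for sarcomeric actin Actc1 made up 98.2% in heart and 1.00% in TA. Actc1 and Acta1 have closely similar coding sequences, so reads may have been shared between them. Some metabolic pairs were exchanged less completely or not at all: Ldhb, the heart form of lactate dehydrogenase, was 72.6% of its pair in heart and 3.71% in TA, while Pfkl, the liver form of phosphofructokinase, was 9.66% of its pair with Pfkm in heart and 0.218% in TA. For cytochrome oxidase 7A the order was turned, with Cox7a2 at 0.48 and Cox7a1 at 0.79.

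**Figure D2:**
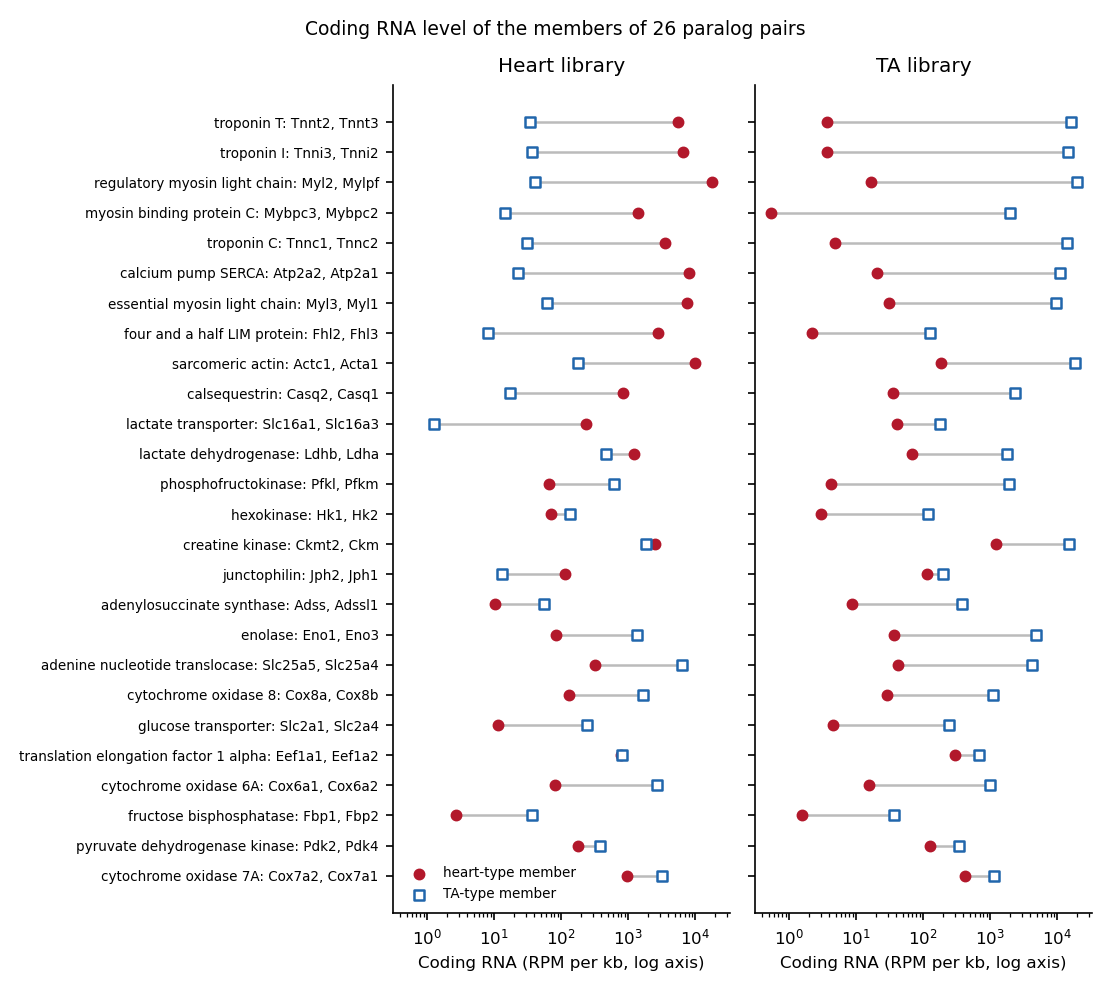
Coding RNA per kilobase (RPM per kb, log axis) of both members of 26 paralog pairs in the heart library (left) and the TA library (right), with the heart-type member as a filled circle and the TA-type member as an open square. The order of the 2 symbols along the axis is turned between the panels for 14 pairs, such as troponin T at the top, and is the same in both panels for 12.

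The framework that both muscles share, the Z-disc, the M-band and titin with its partners, leaned to TA. Of 37 genes compared, 5 were higher in heart and 17 lower, with a median of -0.90 (7 higher and 10 lower without centring, median -0.20). Ttn had 88159 RPM in heart and 143698 RPM in TA, 8.87% and 14.4% of the listed coding RNA. Its centred ratio was -1.40 (interval -1.405 to -1.398), and without centring its log2 ratio was -0.70, short of 2-fold. Xirp2, an actin-binding protein of cell junctions, stood at -2.48. Larger differences were seen for Myot, the Z-disc protein myotilin, with 51.2 RPM in heart and 1414 RPM in TA (-5.48), and for Capn3, the muscle calpain that binds titin, with 4.92 RPM in heart and 188 RPM in TA (-5.92). Pdlim3, a Z-disc PDZ-LIM protein (-4.78), and Tmod4, a thin filament cap (-4.69), were lower as well. The 5 higher members were Myoz2, Cryab, a small heat shock protein (1.79), Actn2, Palld, an actin-bundling scaffold (1.26), and Xirp1 (1.11).

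Calcium handling followed the same division, in lists chosen in the same way. In cardiac myocytes calcium enters through the L-type channel, opens the ryanodine receptor Ryr2, and is cleared by the SERCA pump under phospholamban control and by sodium exchange. Of 18 cardiac calcium-cycling genes compared, 10 were higher in heart and 3 lower (median 1.59; 11 and 2 without centring), and of 14 genes of skeletal calcium cycling and the triad 0 were higher and 11 lower (median -2.46; 8 lower without centring). Atp2a2 had 25167 RPM in heart and 65.4 RPM in TA. Cacna1c, the pore of the cardiac L-type channel, had 802 RPM in heart and 9.38 RPM in TA (5.71), and its accessory subunit Cacnb2 had 89.0 RPM in heart and 0.62 RPM in TA (6.26, interval 5.58 to 7.53). Cacnb2 passed the minimum only through heart. Slc8a1, the sodium-calcium exchanger (3.89), and Casq2, cardiac calsequestrin (3.82), were also higher. Trdn, triadin, which tethers calsequestrin to the release channel, was placed in the cardiac list but had 459 RPM in heart and 1487 RPM in TA (-2.39). Its 3′ UTR ratio was among the 5 that fell furthest below the coding ratio, and its isoform in each tissue was not determined. Cacna2d1, a calcium channel subunit, was also among the lower (-1.39).

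The release channels were listed for 1 tissue each and have no ratio: Ryr2 had 671 RPM per kb in heart and Ryr1 had 670 RPM per kb in TA, levels that are not set relative to the median gene. Jph1, a junctophilin that links the plasma membrane with the calcium store, had 25.9 RPM in heart and 398 RPM in TA (-4.63), whereas Jph2 had 239 RPM in heart and 244 RPM in TA (-0.72), within 2-fold. Stim1, the sensor of store-operated calcium entry, had 23.3 RPM in heart and 144 RPM in TA (-3.32).

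Genes of excitation split by channel. Of 26 ion channels and pumps compared, 5 were higher in heart and 8 lower (median -0.07), against 9 higher and 6 lower without centring (median 0.62), so the balance turned with the centring, and 11 more were listed for heart only. Abcc8, the sulphonylurea receptor of potassium channels sensitive to ATP, stood at 4.09 and Hcn4, the pacemaker channel, at 2.27. At the other end were Clcn1, the skeletal chloride channel (-4.69), and Scn4a, the skeletal sodium channel (-3.77). All 5 conduction system markers compared were higher in heart (1.62 to 2.53), at TA levels of 1.68 to 4.97 RPM. Slc4a3, an anion exchanger, had 365 RPM in heart and 6.52 RPM in TA (5.09).

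Among 33 genes of adrenergic and cyclic nucleotide signalling, which sets the force and rate of the heartbeat, 9 were higher in heart and 6 lower (median 0.50; 20 and 4 without centring). Over all genes the shares were 13.5% and 10.4%, and 35.0% and 3.88% without centring. Adcy5, an adenylyl cyclase, had 124 RPM in heart and 3.91 RPM in TA (4.26), and Adra1a, an alpha-adrenergic receptor, had 29.5 RPM in heart and 0.93 RPM in TA (4.15). Adra1a passed the minimum only through heart. Adrb1, a beta-adrenergic receptor, was listed for heart only (6.96 RPM). Of 12 neuromuscular junction genes compared, 3 were higher (Agrn, Utrn and Lamb2, the last 2 of them also part of the muscle basement membrane and its anchors) and 3 lower (Ky, Chrnb1 and Rapsn). Ky, a protein that maintains muscle structure, stood at -3.62, and Chrnb1, the acetylcholine receptor beta subunit, at -2.78. Without centring 5 of the 12 were higher and 2 lower. A further 5 of that list were listed for TA only.

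Genes of the intercalated disc, which couples heart cells mechanically and electrically, were mostly higher in heart. Of 21 compared, 13 were higher and 2 lower, with a median of 1.38 (16 higher and 1 lower without centring). Besides Dsp, Cdh2 and Pkp2, Gja1, the gap junction protein connexin 43, had 212 RPM in heart and 5.03 RPM in TA (4.67). Ctnna1, alpha-catenin, had 831 RPM in heart and 68.6 RPM in TA (2.90), while Jup, plakoglobin, stood at 1.38. The 2 lower were Nrap and Xirp2. The desmosomal genes Dsg2 and Dsc2 were listed for heart only, at 152 and 99.6 RPM. Of 37 genes of the dystrophin complex and costamere, which tie the sarcomere to the cell membrane, 11 were higher and 4 lower (median 0.45; 21 and 1 without centring). They included Itga5, an integrin (2.21), among the higher and Plec, the cytoskeletal linker plectin (-1.64), among the lower. Over all genes the shares were 13.5% and 10.4%, and 35.0% and 3.88% without centring.

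Lineage transcription factors were low in reads and often listed for 1 tissue. Of 26 cardiac factors 11 were listed for heart only, among them Gata4 (46.3 RPM), Tbx20 (86.4 RPM) and Nkx2-5 (23.0 RPM). Of the 9 compared, 5 were higher and 1 lower (median 1.13). Of these 5, Hopx, Hey2 and Foxc1 had under 1 RPM in TA and passed the minimum only through heart. With a minimum of 1 RPM in each tissue the median of the list was 0.35. Hopx, a homeodomain cofactor, had 60.6 RPM in heart and 0.43 RPM in TA (6.14, interval 5.37 to 7.75), which is wide because the TA level is 7 reads. Mef2c, which acts in both muscles, was the lower one, with 43.2 RPM in heart and 215 RPM in TA (-3.01). Its footprints did not differ by 2-fold (-0.12). Of 48 skeletal and limb factors 20 were listed for TA only, among them Tbx15 (241 RPM) and Myf6 (47.3 RPM), and of the 10 compared 1 was higher and 7 lower.

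**Figure D3:**
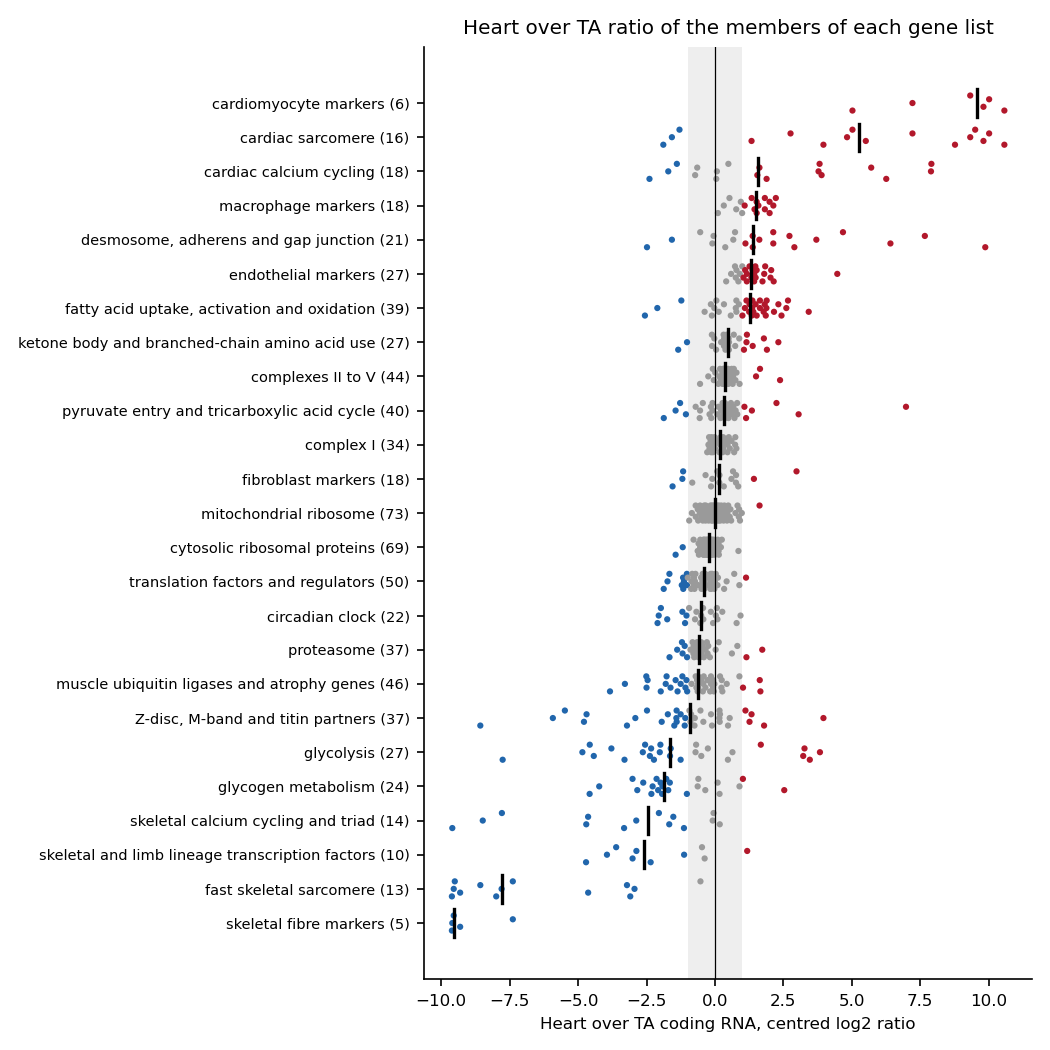
Centred log2 ratio of heart over TA coding RNA for the members of 25 gene lists, 1 point per gene, with the number of genes compared after each name. The bar is the list's median, the grey band lies within 2-fold of the median gene, red points are higher in heart and blue points lower. Medians run from 9.56 for cardiomyocyte markers to -9.54 for skeletal fibre markers. Both of these lists are named by the tissues compared, so their direction is no independent result.

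Genes of fuel use fell into opposite groups. Fatty acids are taken up from lipoproteins and albumin, carried into mitochondria as carnitine esters and shortened by beta-oxidation. Of 39 genes of this route compared, 24 were higher in heart and 3 lower, with a median of 1.26 (30 higher and 2 lower without centring), against 13.5% and 10.4% of all genes. Lpl, which releases fatty acids from lipoproteins, had 3857 RPM in heart and 222 RPM in TA (3.42). Fabp3, the fatty acid binding protein of heart, had 2445 RPM in heart and 248 RPM in TA (2.61), and Cd36, a fatty acid transporter, had 3001 RPM in heart and 416 RPM in TA (2.16). The mitochondrial steps were higher as well, with Ech1, an auxiliary enzyme of oxidation (2.67), Acaa2, the thiolase (2.43), and Hadha, a trifunctional protein subunit (1.88). Cpt1a, a carnitine palmitoyltransferase best known in liver, stood at 2.32. Cpt1b, Acadm, Hadhb, Acot1 and Acacb, of the same list, were listed for neither tissue and have no ratio.

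The 3 lower members of the fatty acid list were acyl-CoA synthetases: Acsl3 with 9.53 RPM in heart and 34.9 RPM in TA (-2.56), Acsl6 (-2.11) and Acsl4 (-1.23). The most abundant synthetase, Acsl1, had 1402 RPM in heart and 301 RPM in TA (1.52). Among 25 genes of triglyceride storage and lipid synthesis, 8 were higher and 2 lower (median 0.65; 16 and 0 without centring), led by Dgat2, which makes triglyceride (3.08). Plin5, a lipid droplet protein of oxidative tissue, had 160 RPM in heart and 19.4 RPM in TA (2.34). The shares over all genes were 13.5% and 10.4%, and 35.0% and 3.88% without centring. Of 27 genes of ketone body and branched-chain amino acid use, 7 were higher and 2 lower (median 0.48; 20 and 0 without centring). Ppm1k, the phosphatase that activates branched-chain ketoacid breakdown, stood at 2.32 and Bckdk, the opposing kinase, at -1.34. Oxct1, the enzyme that commits ketone bodies to oxidation, had 1419 RPM in heart and 390 RPM in TA (1.17).

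Most genes of glycolysis were lower in heart. Of 27 genes compared, 5 were higher in heart and 16 lower (7 and 13 without centring), with a median of -1.64. Aldoa, aldolase, had 2823 RPM in heart and 17214 RPM in TA (-3.30). Pfkm, the muscle phosphofructokinase, had 1457 RPM in heart and 4525 RPM in TA (-2.33), and Eno3, muscle enolase, stood at -2.55. Some single genes were further apart. Pfkfb3, which makes the activator of phosphofructokinase, had 6.31 RPM in heart and 113 RPM in TA (-4.84). Gpd2, a glycerol phosphate dehydrogenase, had 19.05 RPM in heart and 254 RPM in TA (-4.43). Slc16a3, the lactate exporter, had 1.82 RPM in heart and 256 RPM in TA (-7.75, interval -8.61 to -7.15).

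The 5 higher members were the forms found outside fast muscle. Hk1, hexokinase 1, had 193 RPM in heart and 8.26 RPM in TA (3.83), while Hk2, the muscle hexokinase, had 381 RPM in heart and 333 RPM in TA (-0.50), within 2-fold. Ldhb had 1240 RPM in heart and 69.3 RPM in TA (3.46), and its partner Ldha had 507 RPM in heart and 1945 RPM in TA (-2.64). Pfkl and Pfkp, the liver and platelet phosphofructokinases, stood at 3.27 and 3.22, and Pfkfb2, the heart form of the activator-making enzyme, at 1.67. Slc16a1, which carries lactate in either direction, had 344 RPM in heart and 61.4 RPM in TA (1.79).

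Most genes of glycogen metabolism were lower as well. Of 24 genes compared, 2 were higher in heart and 16 lower, with a median of -1.85 (3 and 14 without centring). Pygm, the muscle glycogen phosphorylase, had 1857 RPM in heart and 8191 RPM in TA (-2.84). The subunits of its activating kinase were further apart, with Phka1 at 102 RPM in heart and 1507 RPM in TA (-4.58) and Phkg1 at 34.1 RPM in heart and 396 RPM in TA (-4.23). Gys1, muscle glycogen synthase, stood at -2.08. Phka2, the liver form of the kinase's alpha subunit, was on the other side (1.02), and Pygb, the brain phosphorylase, was listed for heart only (1167 RPM). Ppp1r3d, a glycogen-targeting subunit (2.53), rested on 0.62 RPM in TA.

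**Figure D4:**
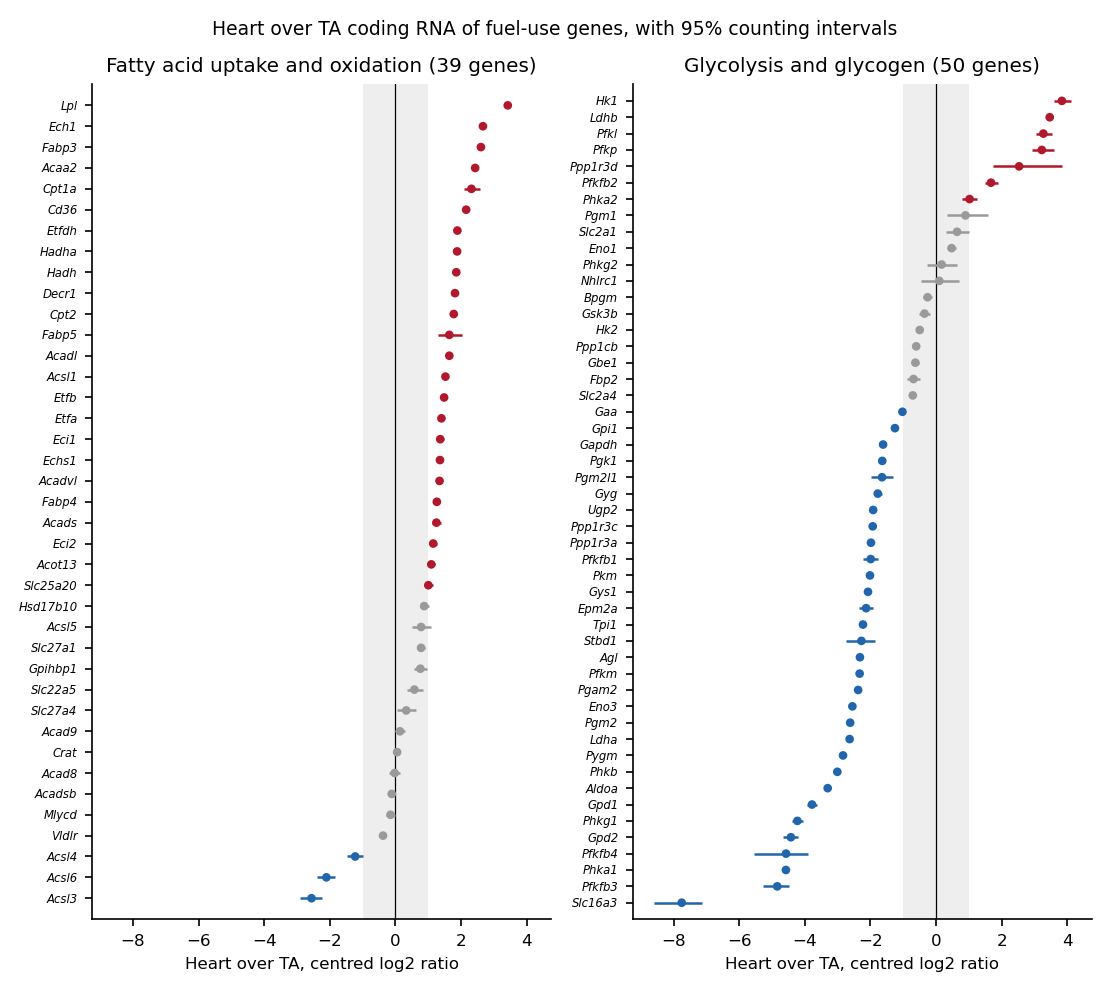
Centred log2 ratio of heart over TA coding RNA (horizontal axis) for compared genes of fatty acid use (left, 39 genes) and of glycolysis and glycogen (right, 50 genes), with 95% counting intervals as bars. The grey band lies within 2-fold of the median gene; fatty acid genes run from 3.42 (Lpl) to -2.56 (Acsl3) and most lie right of the band, while glycolysis and glycogen genes run from 3.83 (Hk1) to -7.75 (Slc16a3) and most lie left of it.

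Genes of the respiratory complexes and of mitochondrial ribosomes mostly lay within 2-fold of the median gene. Of 34 genes of complex I subunits 0 were higher and 0 lower in heart by 2-fold, in a range of -0.28 to 0.78 (median 0.20). Of 44 genes of complexes II to V 3 were higher and 0 lower (median 0.36), and the 3 were Atpif1, the inhibitor of ATP synthase (2.38), and the forms of cytochrome oxidase subunits found outside muscle, Cox6a1 (1.64) and Cox8a (1.50). Without centring the numbers were 10 of 34 and 31 of 44 higher, against 35.0% of all genes, since the shift of the median gene brings many of them past 2-fold. Of the 44 genes 40 lay above the median gene, as did 20 of the 34 of complex I. All listed genes of complexes II to V, 1 of them listed for heart only, took 4.22% of coding RNA in heart and 1.96% in TA. Of 40 genes of pyruvate entry and the tricarboxylic acid cycle 6 were higher and 4 lower (median 0.34), near the shares over all genes (13.5% and 10.4%). Without centring 21 were higher and 1 lower, against 35.0% and 3.88% of all genes. Idh2, an isocitrate dehydrogenase, had 2235 RPM in heart and 166 RPM in TA (3.05), and Ogdhl stood at 6.98. Of 73 mitochondrial ribosomal proteins 1 was higher, Mrps35 (1.63), and 0 were lower (median 0.01).

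Of 42 regulators of mitochondrial genes and dynamics compared, 5 were higher and 2 lower, both under the shares over all genes (13.5% and 10.4%), and without centring 16 were higher and 1 lower. Ppargc1a, the coactivator PGC-1 alpha, had 157 RPM in heart and 39.4 RPM in TA (1.29), and Ppara, Pparg, Ppargc1b and Esrrb stood at 1.42 to 2.52. The 2 lower were Nr4a1 (-4.89) and Rxra (-1.59). Of 37 mitochondrial solute carriers 7 were higher and 5 lower (median 0.09; 15 and 2 without centring), against 13.5% and 10.4% of all genes. They ran from Slc25a34 (3.85) to Slc25a25, an ATP-magnesium carrier (-4.12).

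Energy buffering split by gene. Of 35 genes compared, 7 were higher in heart and 13 lower (median -0.02), against 14 higher and 5 lower without centring (median 0.68), so here too the balance turned with the centring. Ckm, the cytosolic creatine kinase of muscle, had 2104 RPM in heart and 17454 RPM in TA (-3.75), whereas Ckb, the brain form, had 39.3 RPM in heart and 4.35 RPM in TA (2.45). Mb, the oxygen store myoglobin, had 6833 RPM in heart and 1426 RPM in TA (1.56). Prkag3, a subunit of the AMP-activated kinase typical of fast muscle, had 3.0 RPM in heart and 101 RPM in TA (-5.72), and Prkab2, its beta subunit of muscle, stood at -3.38. Slc25a5, a translocase of adenine nucleotides, had 286 RPM in heart and 38.3 RPM in TA (2.20).

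The machinery of protein synthesis and breakdown stood close to the median gene or below it. Of 69 cytosolic ribosomal proteins 0 were higher and 2 lower (median -0.23, against 0.47 without centring). The 2 were Rps27l (-1.18) and Rpl3l, the muscle form of Rpl3, with 168 RPM in heart and 281 RPM in TA (-1.44), while Rpl3 had 180 RPM in heart and 61.2 RPM in TA (0.86), within 2-fold. Of 50 translation factors 1 was higher and 9 lower (median -0.40, against 0.29 without centring), and Eef1a1 and Eef1a2 stood at 0.70 and -0.41. Proteasome genes were 2 higher and 6 lower of 37 (median -0.58, against 0.11 without centring). The 2 higher were Psme1, the interferon-induced proteasome activator (1.73), and Psmb10, an immunoproteasome subunit (1.15).

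Muscle ubiquitin ligases and genes of atrophy were 3 higher and 16 lower of 46 (median -0.61, against 0.08 without centring, where 5 were higher and 8 lower). Asb5, an adaptor of a ubiquitin ligase, had 33.9 RPM in heart and 299 RPM in TA (-3.83), and Klhl33 stood at -3.29. Fbxo32, the ligase atrogin-1, had 112 RPM in heart and 158 RPM in TA (-1.19), short of 2-fold without centring. Of 37 muscle RNA-binding regulators 4 were higher and 4 lower, near the shares over all genes (13.5% and 10.4%), and without centring 13 were higher and 2 lower. Rbm20, which controls titin splicing in heart, had 451 RPM in heart and 126 RPM in TA (1.14), and Csda, a Y-box protein, had 81.9 RPM in heart and 513 RPM in TA (-3.34).

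Markers of other cells in the tissue pieces differed too, and in bulk tissue fewer cells of a type and less RNA per cell cannot be told apart. All 27 endothelial markers compared lay above the median gene and 19 were higher in heart by 2-fold (median 1.33). Without centring all 27 were higher. The shares of all genes higher in heart were 13.5%, and 35.0% without centring. The endothelial markers had a summed level of 2955 RPM in heart and 777 RPM in TA. Kdr, a receptor for vascular growth factor, had 343 RPM in heart and 50.9 RPM in TA (2.05). All 18 macrophage markers compared lay above the median gene and 12 were higher (median 1.48), with sums of 548 RPM in heart and 125 RPM in TA. Without centring 17 of the 18 were higher. Csf1r, the receptor for a macrophage growth factor, had 80.9 RPM in heart and 14.0 RPM in TA (1.82).

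Fibroblast and smooth muscle markers differed less. Of 18 fibroblast markers 2 were higher and 3 lower (median 0.16; 8 and 0 without centring; sums of 4133 RPM in heart and 2798 RPM in TA), and of 19 smooth muscle and pericyte markers 1 was higher and 1 lower (median 0.44; 12 and 0 without centring; sums of 3533 RPM in heart and 2931 RPM in TA). The shares over all genes were 13.5% and 10.4%, and 35.0% and 3.88% without centring. Of 20 lymphocyte markers 2 were compared, Coro1a (1.74) and Ptprc (1.49), and 18 were listed for neither tissue. Both epicardial markers compared were higher, and 7 more were listed for heart only. Of 6 adipocyte markers compared 4 were higher and 2 lower, with sums of 500 RPM in heart and 819 RPM in TA, of which Car3 gave 3.42 RPM in heart and 694 RPM in TA. Cidea was listed for heart only (20.2 RPM), and Adipoq, Plin1, Cidec and Cfd for TA only (2.48 to 16.8 RPM). Fabp4, which is in the fatty acid, endothelial and adipocyte lists, had 384 RPM in heart and 98.7 RPM in TA (1.26). The part of these cells in the fatty acid and other results was not tested.

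Red cell mRNAs were also higher in heart, with 3 of 5 markers compared past 2-fold and 0 lower. Hbb-b1, a beta-globin, had 11935 RPM in heart and 446 RPM in TA (4.05), and per kilobase it was the most abundant listed mRNA in heart. Alas2, the haem-synthesis enzyme of red cell precursors, had 550 RPM in heart and 26.1 RPM in TA (3.69). Globin genes have close copies, so reads may have been shared among them. The 5 red cell markers compared summed to 12613 RPM in heart and 538 RPM in TA.

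Of 57 matrix genes 19 were higher in heart and 8 lower (median 0.28; 26 and 2 without centring). The shares over all genes were 13.5% and 10.4%, and 35.0% and 3.88% without centring. Among the higher matrix genes were Lama5, a laminin, with 664 RPM in heart and 68.5 RPM in TA (2.58), and Col4a1, with 720 RPM in heart and 195 RPM in TA (1.19). Among the lower were the fibrillar collagen genes Col1a1, with 111 RPM in heart and 200 RPM in TA (-1.55), and Col1a2 (-1.19), both short of 2-fold without centring, while Col3a1, another of these, lay within 2-fold (-0.83). Thbs4, a thrombospondin of tendon and muscle, had 4.17 RPM in heart and 36.6 RPM in TA (-3.80). Of 4 tendon, cartilage and bone markers compared 2 were lower, Thbs4 itself and Fmod (-1.37), and 4 more were listed for TA only.

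Reads on the 3′ UTR of the same transcripts gave a second reading of each ratio from the same libraries. Over 4189 genes with a mean of at least 10 RPM in both parts, the coding and 3′ UTR ratios correlated across genes with Pearson's r = 0.975 and Spearman's rho = 0.95, where both parts share library and depth and genes are not independent replicates. Of 545 of these genes called higher on coding reads 513 were higher on 3′ UTR reads, and of 573 called lower 475 were lower. The ratios lay at least 2-fold apart for 40 genes, 20 with the 3′ UTR ratio above and 20 below.

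Among these 40, 2 genes were called in opposite directions. Synpo2, an actin-binding protein of the Z-disc and of smooth muscle, had 143 coding RPM in heart and 339 in TA (-1.95), but 44.7 RPM on the 3′ UTR in heart and 5.53 in TA (2.50). Ano10, a member of the anoctamin family, had 25.9 coding RPM in heart and 37.5 in TA (-1.23), but 51.4 RPM on the 3′ UTR in heart and 7.70 in TA (2.22). Atp2a2 kept its direction with a smaller difference on the listed 3′ UTR, 206 RPM in heart and 5.09 RPM in TA (4.81). For such genes a single deposited transcript model stands for all isoforms, and the isoform in each tissue was not determined.

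**Figure D5:**
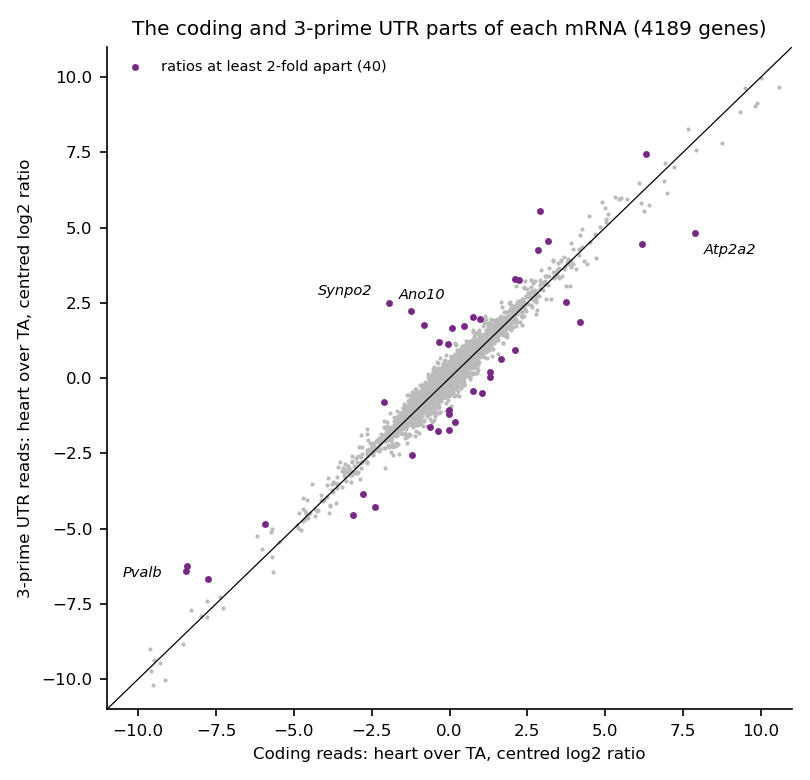
Centred log2 ratio of heart over TA from 3′ UTR reads (vertical axis) against that from coding reads (horizontal axis) for 4189 genes, with the line of equality. Purple points are the 40 genes whose ratios lie at least 2-fold apart; Synpo2 at -1.95 and 2.50 and Ano10 at -1.23 and 2.22 fall at the upper left, where the directions are opposite.

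Ribosome footprints of the same tissues were compared on the same scale. Relative to the median gene 11.9% of the 9843 genes were at least 2-fold higher in heart in footprints and 12.0% at least 2-fold lower. Of the 1332 genes higher in coding RNA 793 were higher in footprints and 3 lower, and of the 1026 lower in coding RNA 752 were lower in footprints and 2 higher. The 3 were Fam109a, Fam115c and Ndufa4l2, and the 2 were Nudt18 and Slc1a3, all with coding RNA under 10 RPM in both tissues and named after their values were seen. Each tissue's libraries were made from the same kind of lysate, so footprints are a second readout and not a replicate.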

How the data were processed

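Per the labels' protocols, total RNA was taken from a crude lysate of frozen tissue, depleted of ribosomal RNA and made into libraries with a kit that does not mark strand, so overlapping antisense genes cannot be told apart. The submitters' processing notes name Bowtie and mm9, with no role for either. Per the labels, reads were mapped to RefSeq transcripts. How reads that map to several places were handled is not stated. The values the authors deposited are RPM for the coding sequence, 5′ UTR and 3′ UTR of 1 transcript model per gene, per the file headers, in a separate table for each tissue. Titin stands on a composite of exons.

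The RNA tables were joined on gene symbol. A repeated symbol (5 surplus rows in heart, 4 in TA) was represented by the row with the largest sum of coding columns. For each gene the ratio was log2((heart + 0.1)/(TA + 0.1)), kept for genes with a mean of at least 1 RPM, minus its median over those genes. It understates the change of low genes. The design had named an exact counting interval where reads can be recovered: 100% of the low RNA values (9939 in heart, 11640 in TA) were whole multiples of 1 read to within 0.005 RPM, the files' rounding, and exact conditional Clopper-Pearson intervals at 95% were computed from these reads. Reads without molecular identifiers are not independent molecules. No count test could be fitted, because 1 library per tissue leaves no residual degrees of freedom.

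The members, the 61 gene lists, 38 paralog pairs and the rule for named genes were chosen with earlier results of these data known. The rule took, at a mean of at least 10 RPM, the 15 highest and 15 lowest ratios, the 2 highest, 2 lowest and most abundant members of each list, all pair members, Ttn, and the 5 genes with the largest disagreement of coding and 3′ UTR reads in each direction. The text gives those that carry a result and adds some further list members as examples, chosen after their values were seen. Some genes that the rule takes, and the pairs they belong to, are not reported here. Promoter windows are from RefSeq (GRCm38.p6), a build other than mm9, and were matched by symbol. Scripts ran in Python 3.11.15 (scipy 1.17.1, pandas 2.3.3, numpy 2.4.6, and plots in matplotlib 3.10.9). Their functions were also tested on simulated counts. Alternatives changed the pseudocount, the minimum, the rows, the centring, the size rule and the part of the transcript.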

Additional observations from a re-analysis of the deposited data

How the results depend on the processing

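No paired analysis was possible because each tissue had 1 RNA library, and no library could be left out. The count of 1332 higher and 1026 lower genes became 3448 and 382 without centring, 2202 and 579 without centring after rescaling without the 50 most abundant genes, 327 and 275 under a 4-fold rule, and 815 and 671 where the whole counting interval had to lie past 2-fold, the last 2 being stricter by construction. The share of calls that were higher was 56.5% as reported, 90.0% without centring and 79.2% with the rescaling. Under the other alternatives (pseudocounts of 1 and 0.01, minimums of 5 RPM, of 1 RPM in each tissue or none, other rows, a trimmed mean, all transcript parts summed, and 3′ UTR reads) the counts stayed within 1.5 times, from 1078 to 1358 higher and 868 to 1057 lower. The genes called were not all the same. With 3′ UTR reads, over 8824 genes, 959 of the 1332 higher and 755 of the 1026 lower were called again. Of 55 list medians 10 changed sign without centring, 6 of 53 with the rescaling and 0 to 3 under each other alternative, these last in lists with medians near 0. Synpo2 turned to 2.39 with 3′ UTR reads, and Ano10 to 0.091 with all parts summed and to 2.12 with 3′ UTR reads, each centred over its own set of genes, and the cause was not tested. Depth limits genes under about 1 RPM, where 1 RPM is 9.34 reads in heart and 16.1 in TA.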

Other observations

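Some groups outside contraction and fuel use also held large differences. Of 18 genes of polyamine, arginine and methionine metabolism 0 were higher in heart and 4 lower, against 4 higher and 2 lower without centring, so the balance turned with the centring. Smox, spermine oxidase, had 18.6 RPM in heart and 229 RPM in TA (-4.31), Amd2, an adenosylmethionine decarboxylase copy whose reads may be shared with a near-identical gene, had 158 RPM in heart and 767 RPM in TA (-2.98), and Sms (-1.40) and Odc1 (-1.19), both short of 2-fold without centring, followed. Of 22 circadian clock genes 0 were higher and 7 lower (2 higher and 4 lower without centring, where the median turned to 0.18 against -0.52 with it), among them Nfil3 (-2.05), Arntl (-1.98) and Rora (-1.74). The labels do not state the time of day at which tissue was taken.

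Of 39 insulin signalling genes 5 were higher and 5 lower, near the shares over all genes (13.5% and 10.4%), and without centring 15 were higher and 4 lower. Of the paired regulators of glucose transporter traffic, Tbc1d4 had 226 RPM in heart and 30.2 RPM in TA (2.20), and Tbc1d1 had 26.8 RPM in heart and 132 RPM in TA (-2.99). Grb14, an adaptor that restrains the insulin receptor, had 254 RPM in heart and 20.4 RPM in TA (2.93). Of 33 secreted factors 13 were higher and 4 lower (22 and 1 without centring), led by Clu, the extracellular chaperone clusterin, with 443 RPM in heart and 27.2 RPM in TA (3.32). The growth inhibitor Mstn, myostatin, was listed for TA only (45.1 RPM), and the natriuretic peptides Nppa and Nppb for heart only (62.6 and 57.6 RPM). Of 20 cell cycle genes 4 were higher and 1 lower (10 and 0 without centring), against 13.5% and 10.4% of all genes. Among the higher were the 3 D-type cyclins, with Ccnd1 at 17.4 RPM in heart and 0.99 RPM in TA (3.31), Ccnd2 at 2.55 and Ccnd3 at 1.41. Ccnd1 passed the minimum only through heart. Of 24 immediate early and stress response genes 5 were higher and 4 lower (14 and 3 without centring), against 13.5% and 10.4% of all genes. Nr4a1, an immediate early nuclear receptor, had 5.24 RPM in heart and 97.7 RPM in TA (-4.89). Egr1, another immediate early gene, had 5.24 RPM in heart and rested on 0.50 RPM in TA (2.46).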
